A study of Mus musculus with 24 samples.

Results

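The liver sinusoid is lined by a specialised endothelium, and 10 genes that mark its state were read in 24 mouse livers. The set was a list of symbols, chosen with earlier results of these data known, so its counts and contrasts are descriptions. It held 7 sinusoidal genes (Stab1, Stab2, Lyve1, Clec4g, Fcgr2b, Oit3 and Gata4) and 3 genes of continuous capillary or vascular endothelium (Cd34, Plvap and Vwf). All 10 were measured, out of 18820 genes on the array, and a gene with several probe sets was represented by the probe set of highest mean over the 24 arrays. The list was then contrasted, sinusoidal against capillary genes, across the 8 groups of the study.

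Sinusoidal endothelial cells differ from the endothelium of most other capillaries in that they carry open pores, the fenestrae, and rest on almost no basement membrane. They clear waste macromolecules and immune complexes from the blood through scavenger, lectin and Fc receptors. In capillarization, known from chronic liver disease and from ageing, these cells lose fenestrae and scavenger receptors, a basement membrane of type IV collagen and laminin appears beneath them, and they gain CD34 and other markers of continuous capillaries. GATA4 is a transcription factor that holds the endothelium in its sinusoidal state in mice, and hepatocytes also express it.

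The study held 8 groups of 3 mice, and its title asks how JNK1 and JNK2 of hepatocytes set cell fate in liver carcinogenesis. At 52 weeks of age, untreated NEMO/JNKΔhepa mice, labelled as triple knockouts of NEMO (gene Ikbkg), JNK1 (Mapk8) and JNK2 (Mapk9), were compared with mice labelled control. JNKΔhepa mice, labelled as JNK1 and JNK2 double knockouts, were compared with mice labelled control 40 days after diethylnitrosamine (DEN), a carcinogen activated in hepatocytes, and 28 days after bile duct ligation (BDL), a surgical model of cholestasis. At 8 weeks of age, untreated NEMO/JNK1Δhepa double knockouts were compared with NEMOΔhepa single knockouts. Per the labels' protocols the deletions of floxed genes were driven by Alb-Cre, whose albumin promoter is active in hepatocytes, whereas Jnk2 was lost through a Jnk2-deficient line. The floxed genes were thus not targeted in endothelial cells by design, and a Jnk2-deficient line lacks the gene in every cell. The sources used here give no age for the DEN and BDL mice and no untreated group beside them.

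Several properties of the livers bear on the comparisons. Values are RMA expression levels on the log2 scale, array medians over all probe sets lay between 4.52 and 4.66, and arrays of a group correlated at r between 0.966 and 0.987. Mapk8 and Ikbkg were lower in NEMO/JNKΔhepa livers at 52 weeks, with log2 differences of -0.87 and -0.85 (limma adjusted p = 0.00259 and 0.0043). Mapk9 stood at 2.82 to 3.51 in all 18 livers other than those at 8 weeks, controls included, against 7.99 to 8.53 in the 6 livers at 8 weeks, so that the libraries labelled control lay at the level of the JNK knockouts. Replicate 3 of the JNKΔhepa DEN group had an Xist value of 10.38, against 2.16 to 3.87 in the other livers, and a Kdm5d value of 3.66. Replicate 3 of the NEMO/JNK1Δhepa group and replicate 2 of the JNKΔhepa DEN group stood apart in the genes described here, and results that rest on them are given with and without them. Mouse identifiers differed throughout, but all NEMO/JNK1Δhepa identifiers opened with a number that no NEMOΔhepa identifier had, so that this number, whose meaning the labels do not give, and the genotype cannot be told apart at 8 weeks.

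The array values are relative within a gene, so that only differences between livers are compared and no gene is ranked against another. In whole-liver RNA, fewer endothelial cells and less RNA of a gene per endothelial cell cannot be told apart. A gene was called changed when its p from limma, adjusted by Benjamini-Hochberg over all 18820 genes, was under 0.05.

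**Figure D1:**
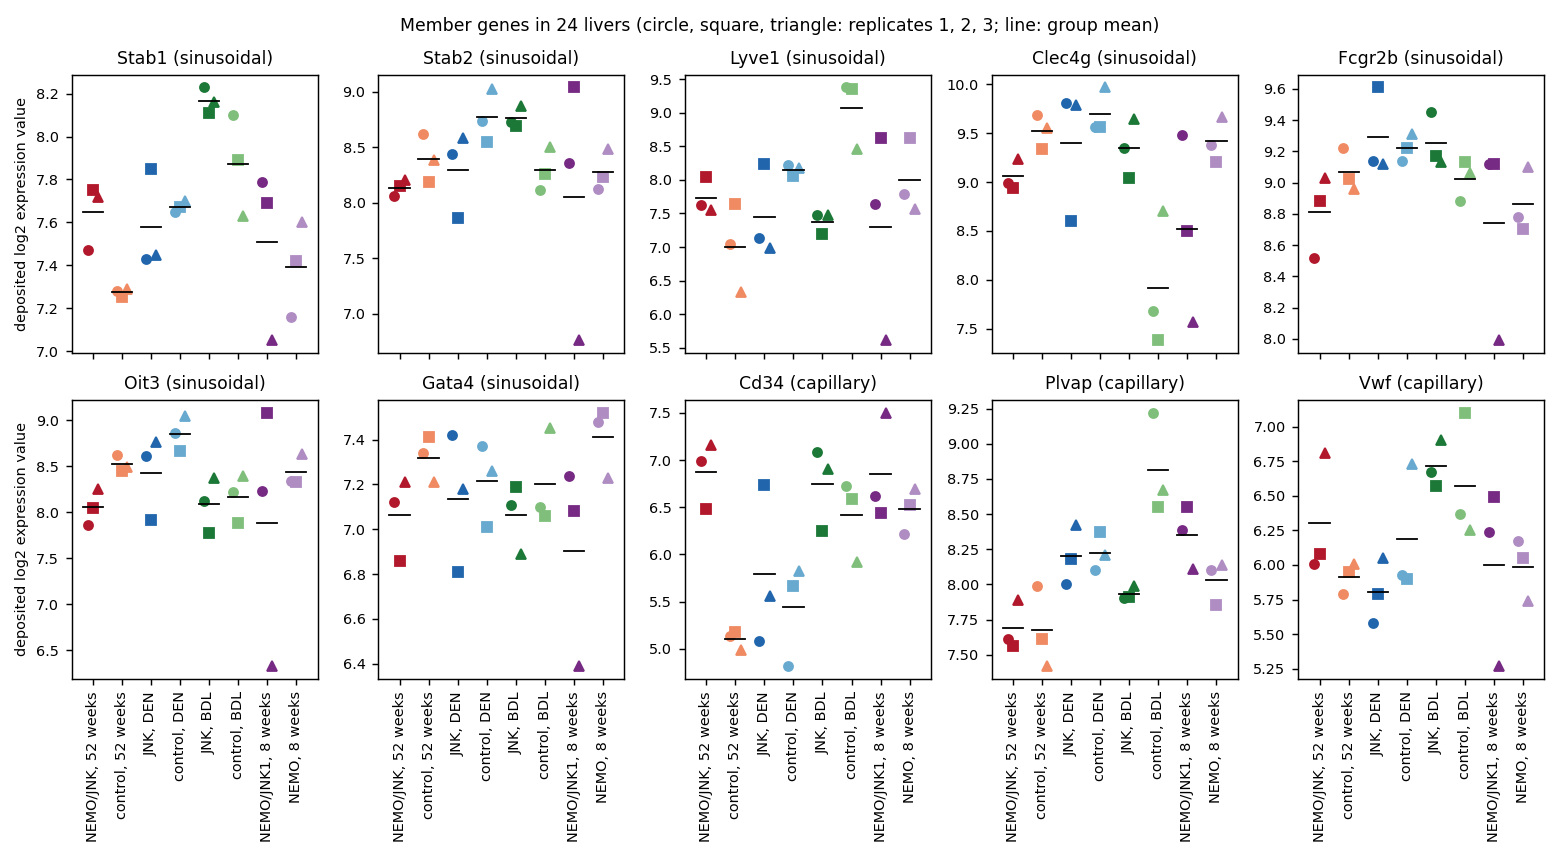
Deposited log2 expression value of each of the 10 genes in 24 livers, by group, with circles, squares and triangles for replicates 1, 2 and 3 and a line at the group mean. Cd34 stands between 6.48 and 7.16 in NEMO/JNKΔhepa livers against 4.99 to 5.18 in control livers at 52 weeks, Lyve1 between 7.19 and 7.48 in JNKΔhepa livers against 8.46 to 9.38 in control livers after BDL, and replicate 3 of the NEMO/JNK1Δhepa group is the lowest liver for Stab1, Stab2, Lyve1, Fcgr2b, Oit3, Gata4 and Vwf.

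The upstream sequences of Cd34, the gene with the largest called rise, and of Clec4g, a gene called lower in the same comparison, are printed because these genes moved in opposite directions in the ageing livers. RefSeq promoter windows, on the mouse build GRCm38.p6, were matched for 5 of the 10 genes (Stab1, Stab2, Clec4g, Fcgr2b and Cd34). Cd34 lies at chr1:194938821-194961292 on the plus strand and the window at chr1:194938571-194938820 covers the 250 bases before its start. Clec4g lies at chr8:3707066-3720695 on the minus strand, and the window at chr8:3720696-3720901 holds 206 bases, with the 44 bases inside the annotated gene left off. Both are written 5′ to 3′ on the strand of the gene, and capitals mark AGGAAG or CGGAAG on either strand, a core to which ETS factors, a family used widely by endothelial genes, can bind.
Cd34: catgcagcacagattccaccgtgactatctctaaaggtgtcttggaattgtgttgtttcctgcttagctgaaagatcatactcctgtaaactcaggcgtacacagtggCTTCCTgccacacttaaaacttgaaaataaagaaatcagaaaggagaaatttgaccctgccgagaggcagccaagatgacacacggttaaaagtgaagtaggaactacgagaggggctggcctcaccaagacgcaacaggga
Clec4g: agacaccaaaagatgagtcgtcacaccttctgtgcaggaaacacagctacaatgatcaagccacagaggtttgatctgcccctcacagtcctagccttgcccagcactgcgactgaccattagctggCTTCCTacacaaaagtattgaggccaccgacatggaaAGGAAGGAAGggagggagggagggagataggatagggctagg
Over the full windows of 250 bases, Cd34 held 1 such match and Clec4g 3, of which a pair overlaps, while Stab1 held 2, Stab2 1 and Fcgr2b 0. The share of all 32851 promoter windows of that length with a match was 39.2%. The GATA core AGATAA or TGATAA, searched on both strands, was in 0 of the 5 windows and in 16.6% of all windows. A match here is a description of the letters and says nothing on binding.

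Cd34 was the endothelial gene of the list that set the 52-week livers apart. It encodes a sialomucin of haematopoietic progenitors and of capillary endothelium that healthy sinusoids carry at low levels. Its values were 6.99, 6.48 and 7.16 in NEMO/JNKΔhepa livers, against 5.14, 5.18 and 4.99 in control livers. The groups did not overlap, and control livers lay within 0.10 of each other by SD. Cd34 averaged 6.88 ± 0.35 in NEMO/JNKΔhepa livers and 5.10 ± 0.10 in control livers (SD, n = 3 each), a log2 difference of 1.77 (SE 0.18, limma adjusted p = 0.000336) or 3.42-fold. The call held when any 1 of the 6 livers was left out, with differences of 1.63 to 1.97. Of the 10 genes 3 were called, against 21.5% of all genes tested in this comparison, 13.6% higher and 7.9% lower. Groups that did not overlap were seen for Cd34, Oit3, Clec4g and Stab1, against 41.2% of all genes.

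A pair of sinusoidal genes fell at 52 weeks by smaller amounts. Oit3, a secreted protein of liver and endothelium with a zona pellucida domain, had values of 7.86, 8.05 and 8.25 in NEMO/JNKΔhepa livers, against 8.62, 8.45 and 8.49 in control livers. Clec4g, the C-type lectin LSECtin of sinusoidal endothelium, had values of 8.99, 8.94 and 9.24 in NEMO/JNKΔhepa livers, against 9.69, 9.34 and 9.55 in control livers. Neither gene's groups overlapped. The log2 difference was -0.47 for Oit3 (SE 0.13, limma adjusted p = 0.0364) and -0.47 for Clec4g (SE 0.14, limma adjusted p = 0.0434). Without single livers the differences ranged from -0.57 to -0.38 for Oit3 and from -0.57 to -0.39 for Clec4g. The call of Oit3 was lost without control replicate 1, 2 or 3 or NEMO/JNKΔhepa replicate 1 or 2, at adjusted p of 0.0624 to 0.126. That of Clec4g was lost without control replicate 1 or 3 or NEMO/JNKΔhepa replicate 1 or 2, at adjusted p of 0.104 to 0.126.

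The scavenger receptors were not called. Stab1, stabilin-1, a scavenger receptor that macrophages also carry, had values of 7.47, 7.75 and 7.72 in NEMO/JNKΔhepa livers, against 7.28, 7.25 and 7.29 in control livers, without overlap. Its log2 difference was 0.37 (SE 0.12, limma adjusted p = 0.0595), and 3 other settings put it past the threshold, at adjusted p of 0.0383 to 0.0467. Stab2, stabilin-2, the main endocytic receptor for hyaluronan in the sinusoid, ran from 8.06 to 8.20 in NEMO/JNKΔhepa livers, against 8.19 to 8.62 in control livers, and its groups overlapped by 1 liver (difference -0.26, adjusted p = 0.215). Lyve1, another hyaluronan receptor, shared with lymphatic endothelium, had values of 7.62, 8.04 and 7.55 in NEMO/JNKΔhepa livers, against 7.04, 7.64 and 6.33 in control livers, with a difference of 0.73 (SE 0.30, adjusted p = 0.113), and without control replicate 2 it was called at 1.05 (adjusted p = 0.0201). Fcgr2b, the inhibitory Fc receptor that takes up immune complexes in sinusoids and is also carried by B cells and macrophages, and Gata4 each differed by -0.26 (adjusted p = 0.273 and 0.204) with overlapping groups.

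The other capillary genes were not called at 52 weeks. Plvap, which forms the diaphragms of fenestrae and caveolae and is scarce in healthy sinusoids, had values of 7.61, 7.56 and 7.89 in NEMO/JNKΔhepa livers, against 7.99, 7.61 and 7.42 in control livers, a difference of 0.01 (SE 0.17, adjusted p = 0.962). Vwf, the von Willebrand factor of larger vessels and megakaryocytes, had values of 6.01, 6.08 and 6.81 in NEMO/JNKΔhepa livers, against 5.79, 5.95 and 6.01 in control livers, a difference of 0.38 (SE 0.21, adjusted p = 0.226). For both genes the groups overlapped or touched. The scaling mattered here. When arrays were centred on their medians over the 18820 genes, the median difference over all genes was -0.37 instead of -0.045. These medians differ from those over all probe sets given above. With this centring 1570 genes were called higher and 8942 lower instead of 2562 and 1486, and Plvap took the value -0.31. Under that scaling 6 of the 10 genes were called, Cd34 higher and Oit3, Clec4g, Stab2, Fcgr2b and Gata4 lower, the last 3 at -0.58 each, and with quantile normalisation, which called 2115 genes higher and 2426 lower, Cd34 alone was called.

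**Figure D2:**
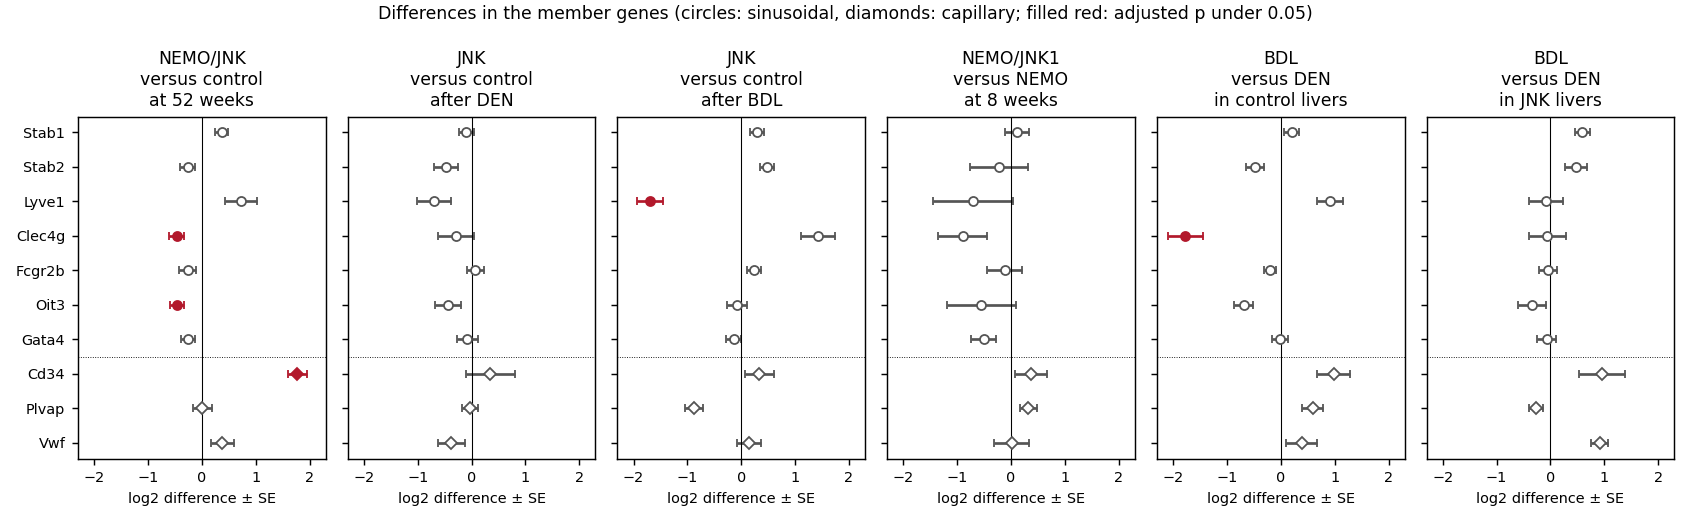
Log2 difference with its standard error for the 10 genes in 6 comparisons of 3 against 3 livers, circles for sinusoidal and diamonds for capillary genes, filled red where the limma adjusted p is under 0.05. Cd34 at 1.77, Oit3 and Clec4g at -0.47 are called at 52 weeks, Lyve1 at -1.69 after BDL between genotypes and Clec4g at -1.77 between BDL and DEN in control livers.

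Other genes of capillary endothelium and its basement membrane were also higher at 52 weeks. Of 22 measured genes of this kind, 10 rose and 0 fell, against 13.6% and 7.9% of all genes, and 21 had a positive difference. Their median log2 difference was 0.56, against -0.045 for all genes. The laminin chain Lamc1 had values of 8.02, 7.52 and 7.80 in NEMO/JNKΔhepa livers, against 5.96, 6.51 and 6.36 in control livers (difference 1.50, limma adjusted p = 0.000801). Its groups lay more than 1 log2 unit apart. Cav2, caveolin-2 of caveolae, differed by 1.57 (adjusted p = 0.0024), and Cd9, a tetraspanin that macrophages and bile ducts also carry, by 1.42 (adjusted p = 0.00212). Counts of genes called higher ranged from 6, without control replicate 3 or NEMO/JNKΔhepa replicate 3, to 14, without NEMO/JNKΔhepa replicate 2, and were 7, with 1 lower, under both other scalings.

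Further sinusoidal genes went both ways at 52 weeks. Of 19 measured, 4 rose and 4 fell, against 13.6% and 7.9% of all genes, at a median of 0.30. Lgmn, the lysosomal protease legumain, which macrophages express strongly, had values of 10.03, 10.68 and 10.11 in NEMO/JNKΔhepa livers, against 8.71, 9.09 and 8.68 in control livers (difference 1.45, limma adjusted p = 0.00136). Sdc3, syndecan-3, rose by 1.08 (adjusted p = 0.00822). Aass, an enzyme of lysine breakdown that hepatocytes also make, fell by 0.82 on the log2 scale (adjusted p = 0.00517), with 9.21, 9.51 and 9.56 in NEMO/JNKΔhepa livers, against 10.03, 10.38 and 10.35 in control livers. Gpr182, an atypical chemokine receptor of sinusoidal endothelium, also fell, by 0.59 (adjusted p = 0.0179). The split was 2 higher and 6 lower with centred arrays, and 2 were higher without control replicate 1 or 3 or NEMO/JNKΔhepa replicate 3. The number lower was 2 without control replicate 1 and 1 without control replicate 3 or NEMO/JNKΔhepa replicate 1 or 2.

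Of 24 pan-endothelial genes 3 rose and 1 fell, beside 21.5% of all genes called, with a median difference of 0.09. Those that rose were the transcription factor Fli1 (0.81, limma adjusted p = 0.00622), the surface protein Ecscr (0.72, adjusted p = 0.00569) and the junction cadherin Cdh5 (0.52, adjusted p = 0.0176), and with centred arrays 2 rose and 6 fell. Among 23 regulators of endothelial identity 7 rose and 1 fell. Id1, a target of BMP signalling, differed by 1.85 (adjusted p = 0.00213), Hey1, a Notch target, by 1.13 (adjusted p = 0.000405), and Gata6, a GATA factor expressed in several liver cell types, by 0.98 (adjusted p = 0.00223). Of 13 angiocrine genes, factors through which endothelium instructs its neighbours, Jag1 and Bmp6 rose. Jag1, a Notch ligand that bile duct and mesenchymal cells also make, had values of 8.28, 7.14 and 7.66 in NEMO/JNKΔhepa livers, against 5.24, 5.64 and 5.46 in control livers, a difference of 2.25 (adjusted p = 0.000645).

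Markers of other cells moved with these genes at 52 weeks, and their part in the result was not tested. Their counts stand beside 13.6% of all genes called higher and 7.9% lower. The lists share genes, so that Flt4 counts as sinusoidal and lymphatic, and Cd9 as capillary and infiltrating macrophage. The log2 of the summed values of 7 biliary markers was 10.36 to 11.13 in NEMO/JNKΔhepa livers, against 7.62 to 8.25 in control livers, and all 7 rose, with Cftr of control livers no higher than the low Mapk9 values. That of 8 infiltrating macrophage markers was 10.37 to 10.71 in NEMO/JNKΔhepa livers, against 8.47 to 9.08 in control livers, with 7 higher, and that of 13 Kupffer cell markers 12.51 to 13.53 in NEMO/JNKΔhepa livers, against 11.64 to 12.06 in control livers, with 8 higher and 1 lower. In contrast, the summed pan-endothelial level was 11.90 to 12.14 in NEMO/JNKΔhepa livers, against 11.86 to 11.96 in control livers, and that of 9 hepatocyte markers was 15.64 to 15.74 in NEMO/JNKΔhepa livers, against 15.41 to 15.72 in control livers, with 0 called. Of 14 stellate and mesenchymal markers 2 rose and 4 fell, among them Lrat, which stores retinol in stellate cells, by 2.19 on the log2 scale (limma adjusted p = 0.00132). Portal fibroblast and mesothelial markers rose in 5 of 11 cases, the mesothelial Msln by 3.45 (adjusted p = 0.000167). Lymphatic markers rose in 3 of 5 cases, with Mmrn1, multimerin-1 of lymphatic endothelium and platelets, at 5.26, 5.45 and 7.19 in NEMO/JNKΔhepa livers, against 4.51, 3.16 and 3.59 in control livers (difference 2.22, adjusted p = 0.0147).

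**Figure D3:**
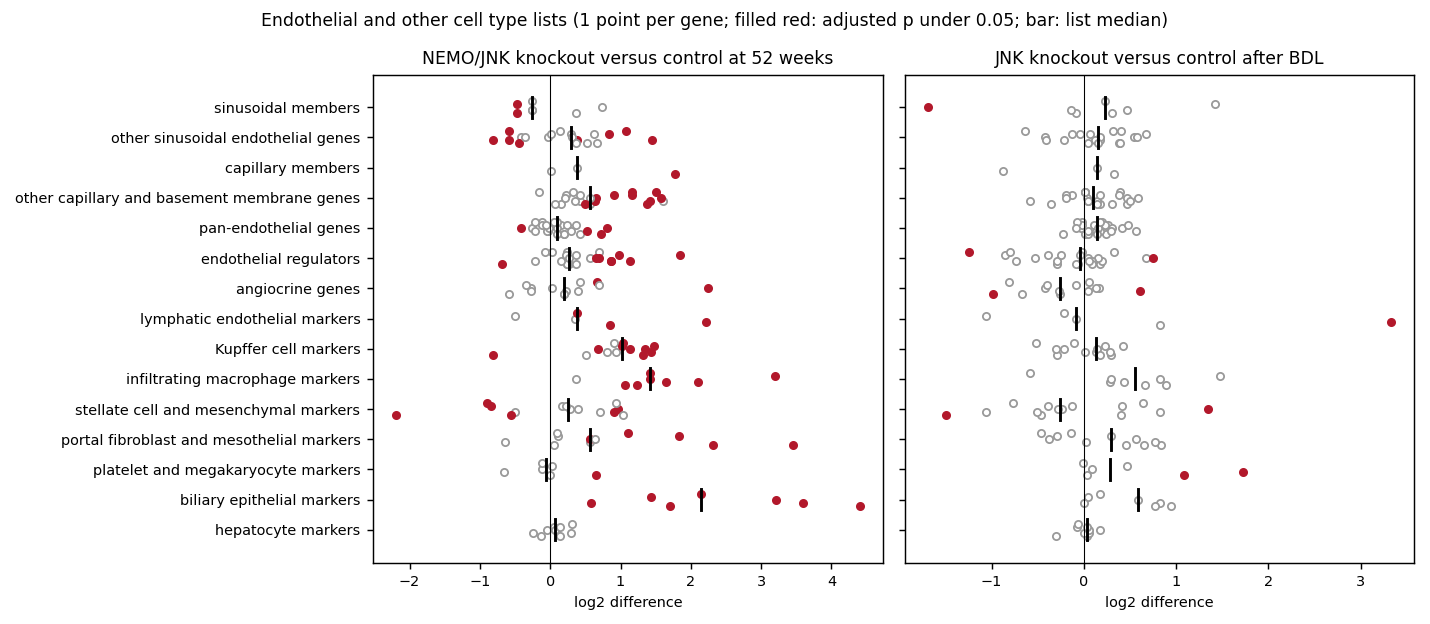
Log2 differences of single genes, 1 point per gene, in 15 endothelial and other cell type lists for NEMO/JNKΔhepa against control livers at 52 weeks (left) and JNKΔhepa against control livers after BDL (right), with filled red points for limma adjusted p under 0.05 and a bar at the list median. At 52 weeks the capillary and basement membrane genes centre on 0.56 and the pan-endothelial genes on 0.09, and after BDL the same lists centre on 0.10 and 0.15.

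After bile duct ligation it was Lyve1 that separated the genotypes. Its values were 7.47, 7.19 and 7.48 in JNKΔhepa livers, against 9.38, 9.35 and 8.46 in control livers, without overlap. Lyve1 averaged 7.38 ± 0.16 in JNKΔhepa livers and 9.06 ± 0.52 in control livers (SD, n = 3 each), a log2 difference of -1.69 (SE 0.24, limma adjusted p = 0.0207), 3.22-fold lower. It was the 1 gene of the 10 that was called, against 1.35% of all genes. Leaving out control replicate 1 (adjusted p = 0.0757) or JNKΔhepa replicate 1, 2 or 3 (adjusted p = 0.0907, 0.113 and 0.0806) ended the call, with differences of -1.53 to -1.74, and the difference was -1.99 without control replicate 3. In the fit without control replicate 3, the number that opens the mouse identifiers and the genotype cannot be told apart. In 1 fit over all 24 arrays Lyve1 was not called (adjusted p = 0.188).

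The other genes of the BDL livers did not pass, though 4 of them had groups that did not overlap, as did Lyve1, against 20.7% of all genes. Clec4g had values of 9.35, 9.04 and 9.64 in JNKΔhepa livers, against 7.68, 7.38 and 8.70 in control livers, a log2 difference of 1.42 (SE 0.32, limma adjusted p = 0.0941). Plvap had values of 7.90, 7.91 and 7.99 in JNKΔhepa livers, against 9.22, 8.55 and 8.67 in control livers, a difference of -0.88 (SE 0.17, adjusted p = 0.0621). The JNKΔhepa livers thus had the lower values of Lyve1 and Plvap and the higher values of Clec4g. Stab2 had values of 8.73, 8.69 and 8.87 in JNKΔhepa livers, against 8.11, 8.26 and 8.50 in control livers (difference 0.47, adjusted p = 0.138), and Stab1 8.23, 8.11 and 8.16 in JNKΔhepa livers, against 8.10, 7.89 and 7.63 in control livers (difference 0.30, adjusted p = 0.366). Clec4g was called at 1.81 without control replicate 3 (adjusted p = 0.00749), and Plvap at -1.01 without control replicate 2 (adjusted p = 0.0374). Without control replicate 3, the number that opens the mouse identifiers and the genotype cannot be told apart.

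Values of Cd34 overlapped after BDL. They were 7.08, 6.25 and 6.91 in JNKΔhepa livers, against 6.73, 6.59 and 5.92 in control livers, a difference of 0.33 (SE 0.27, limma adjusted p = 0.643). Vwf, Fcgr2b, Oit3 and Gata4 overlapped too, at differences of 0.14, 0.23, -0.08 and -0.14. Mouse identifiers of control replicates 1 and 2 opened with a number of their own, and those of control replicate 3 and all JNKΔhepa mice shared another. Within the shared number, with 1 control liver, Lyve1 was lower by 1.08 in JNKΔhepa livers (7.38 against 8.46), Clec4g was higher by 0.64, Plvap lower by 0.73 and Cd34 higher by 0.82. Against the other 2 controls those differences were -1.99 for Lyve1, 1.81 for Clec4g, -0.95 for Plvap and 0.09 for Cd34. With this number as a block, Lyve1 stood at -1.08 (limma adjusted p = 0.0486), Clec4g at 0.64 (adjusted p = 0.35) and Plvap at -0.73 (adjusted p = 0.283).

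Of 19 other sinusoidal, 22 other capillary and 24 pan-endothelial genes 0 were called by limma, with 8, 8 and 3 at an unadjusted p under 0.05, against 14.6% of all genes, and their medians were 0.15, 0.10 and 0.15. Without control replicate 3, limma called 2 of the sinusoidal genes higher and, of the capillary ones, 1 higher and 1 lower. Named changes lay in signalling genes. Hgf, hepatocyte growth factor of endothelial and stellate cells, had values of 7.64, 7.81 and 7.70 in JNKΔhepa livers, against 8.97, 8.63 and 8.49 in control livers (difference -0.98, limma adjusted p = 0.0207). Gdf2, which encodes the stellate cell ligand BMP9, had values of 5.74, 6.06 and 5.64 in JNKΔhepa livers, against 7.57, 6.84 and 6.73 in control livers (difference -1.24, adjusted p = 0.0496). Vegfd, a lymphangiogenic growth factor, was higher by 0.75 (adjusted p = 0.0441). Il6 was called higher by 0.61, at levels of 2.64 to 2.74 in JNKΔhepa livers, against 2.02 to 2.18 in control livers, all under the lowest Mapk9 value of 2.82.

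Mmrn1, the lymphatic and platelet gene, was also called after BDL. It had values of 6.49, 6.03 and 5.02 in JNKΔhepa livers, against 2.44, 2.65 and 2.45 in control livers, where it lay under the lowest Mapk9 value of 2.82. The difference was 3.33 (SE 0.33, limma adjusted p = 0.00402), whose size is not exact with the control livers at so low a level, and the other 4 lymphatic markers were not called. Platelet genes stood beside it. Ppbp had values of 6.45, 6.40 and 6.22 in JNKΔhepa livers, against 4.97, 4.56 and 4.37 in control livers, and Pf4 6.10, 5.90 and 5.92 in JNKΔhepa livers, against 5.33, 4.58 and 4.72 in control livers. Both were called, by 1.72 and 1.09, and the log2 sum of 6 platelet markers was 7.82 to 8.00 in JNKΔhepa livers, against 7.04 to 7.31 in control livers. Of the stellate markers, Acta2 of contractile cells rose by 1.35 and Lrat fell by 1.49 on the log2 scale. The log2 sum of the biliary markers was 9.30 to 9.84 in JNKΔhepa livers, against 8.61 to 9.39 in control livers, and that of the hepatocyte markers 15.75 to 15.79 in JNKΔhepa livers, against 15.70 to 15.82 in control livers. The part of these cells in the result was not tested.

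The injuries themselves were compared within each genotype, BDL against DEN, as a secondary description, since the mice differed in treatment, duration and perhaps age. Among livers labelled control, Clec4g was the 1 gene of the 10 called, against 2.48% of all genes. Its values were 7.68, 7.38 and 8.70 after BDL, against 9.56, 9.56 and 9.97 after DEN, a log2 difference of -1.77 (SE 0.32, limma adjusted p = 0.0377) or 3.41-fold lower. The call was lost without control DEN replicate 1, 2 or 3 (adjusted p = 0.0784, 0.105 and 0.114) or control BDL replicate 1 or 2 (adjusted p = 0.165 and 0.0773). Control BDL replicate 3 was the only BDL control liver to share its identifier number with the DEN controls. Without control BDL replicate 3 the difference was -2.16 (limma adjusted p = 0.00393) and Lyve1 was called too, at 1.21 (adjusted p = 0.00601). In that fit the identifier number and the injury cannot be told apart.

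In these control livers 7 of the 10 genes had groups that did not overlap, against 24.9% of all genes. Lyve1 was higher after BDL, with 9.38, 9.35 and 8.46, against 8.22, 8.06 and 8.18 after DEN (difference 0.91, limma adjusted p = 0.0993). Cd34 was higher too, with 6.73, 6.59 and 5.92 after BDL, against 4.82, 5.67 and 5.83 after DEN (0.98, adjusted p = 0.144), and so was Plvap, with 9.22, 8.55 and 8.67 after BDL, against 8.10, 8.37 and 8.21 after DEN (0.59, adjusted p = 0.153). Among the other sinusoidal genes Oit3 differed by -0.69 (adjusted p = 0.0812), Stab2 by -0.48 (adjusted p = 0.177) and Fcgr2b by -0.20, each without overlap, while Stab1 (0.20), Gata4 and Vwf overlapped. Of the other capillary and basement membrane genes 4 of 22 were called higher, against 2.48% of all genes called in either direction. Among them were the type IV collagen chains Col4a1 and Col4a2, each by 1.25, and Lamc1 by 0.77. Col4a1 had values of 7.73, 7.24 and 7.02 after BDL, against 6.04, 6.27 and 5.92 after DEN. That count was 0 without control DEN replicate 1, 2 or 3 or control BDL replicate 1, and 1 without control BDL replicate 2. Calls in the markers of other cells stand beside the same 2.48% of all genes. Stellate markers rose in 6 of 14 cases, portal fibroblast and mesothelial markers in 4 of 11 and biliary markers in 3 of 7. Infiltrating macrophage markers rose in 2 of 8 cases, and of 8 B cell markers Pax5 fell, by 0.73 on the log2 scale (adjusted p = 0.0381). Pax5 averaged 2.97 after BDL, against 3.71 after DEN. After BDL the means of Pax5, Ms4a1, Cr2 and Fcer2a were no higher than the low Mapk9 values, which reached 3.51. The size of the fall of Pax5 is thus not exact. The log2 sum of the B cell markers was 6.69 to 6.91 after BDL, against 7.38 to 7.61 after DEN. The part of these cells in the result was not tested.

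In JNKΔhepa livers 0 of the 10 genes were called between BDL and DEN by limma, against 1.08% of all genes, and 3 of the 10 had an unadjusted p under 0.05, against 13.4% of all genes. Vwf was 6.67, 6.57 and 6.90 after BDL, against 5.58, 5.79 and 6.05 after DEN (difference 0.91, limma adjusted p = 0.0572). Stab1 was 8.23, 8.11 and 8.16 after BDL, against 7.43, 7.85 and 7.45 after DEN (0.59, adjusted p = 0.124). Both genes, with Stab2 and Plvap, had groups that did not overlap, against 19.9% of all genes. Without replicate 2 of the JNKΔhepa DEN group, Stab1 (0.73, adjusted p = 0.0152), Cd34 (1.43, adjusted p = 0.031) and Vwf (0.90, adjusted p = 0.0346) were called. In that fit 836 of all 18820 genes were called higher and 490 lower, so the share of 1.08% does not apply to it. Cd34 was 7.08, 6.25 and 6.91 after BDL, against 5.08, 6.74 and 5.56 after DEN, and replicate 2 of the DEN group is the value in the overlap. The DEN livers left without replicate 2 include replicate 3, the liver with the high Xist value. Stellate markers rose in 3 of 14 cases, portal fibroblast and mesothelial markers in 2 of 11 and infiltrating macrophage markers in 1 of 8, which was Gpnmb (3.28, adjusted p = 0.0137). No B cell marker was called, and their log2 sum was 6.99 to 7.14 after BDL, against 7.45 to 8.69 after DEN. The part of these cells in the result was not tested.

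Whether the genotype acted differently after the 2 injuries was tested as an interaction over the 12 livers, which are the livers of the BDL and DEN comparisons. None of the 10 genes was called by limma, against 0.0478% of all genes, and 3 sinusoidal genes and 1 capillary gene had an unadjusted p under 0.05, against 7.11% of all genes. The JNK effect after BDL minus that after DEN was 1.71 for Clec4g (SE 0.52, limma adjusted p = 0.537), 0.95 for Stab2 (SE 0.27, adjusted p = 0.459), -0.85 for Plvap (SE 0.24, adjusted p = 0.459) and -0.99 for Lyve1 (SE 0.44, adjusted p = 0.688).

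After DEN no gene was called between the genotypes. Limma called 0 of 18820 genes (0%), 781 had an unadjusted p under 0.05, and 0 of the 10 genes were among these. Lyve1 had values of 7.14, 8.23 and 6.98 in JNKΔhepa livers, against 8.22, 8.06 and 8.18 in control livers, a difference of -0.70 (SE 0.32, limma adjusted p = 0.985). Stab2 had values of 8.44, 7.86 and 8.58 in JNKΔhepa livers, against 8.74, 8.55 and 9.02 in control livers, a difference of -0.48 (SE 0.22, adjusted p = 0.985). Cd34 had values of 5.08, 6.74 and 5.56 in JNKΔhepa livers, against 4.82, 5.67 and 5.83 in control livers, a difference of 0.35 (SE 0.46). Groups that did not overlap were seen for 0 of the 10 genes, against 9.47% of all genes, and the other differences lay between -0.43 for Oit3 and 0.07 for Fcgr2b.

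Replicate 2 of the JNKΔhepa DEN group stood apart from its group. It was below both other livers of its group for Clec4g (8.60), Stab2 (7.86), Oit3 (7.91) and Gata4 (6.81) and above them for Fcgr2b (9.61), Lyve1 (8.23), Stab1 (7.85) and Cd34 (6.74). Of the other capillary and basement membrane genes 20 of 22 were above both others, at a median of 0.74 over their mean, and 12 of 19 other sinusoidal genes were below. All 8 infiltrating macrophage markers and 6 of 7 biliary markers were above, at medians of 1.98 and 1.25, and 8 of 9 hepatocyte markers were below, at a median of -0.28, while of all 18820 genes 40.7% were below and 6427 genes were above. The part of these cells in the member values was not tested. Without this liver the differences were -1.09 for Lyve1, -0.26 for Stab2, 0.11 for Clec4g and -0.12 for Cd34, with 0 of the 10 called. Without replicate 3, the liver with high Xist, they were -0.47 for Lyve1, -0.62 for Stab2, -0.49 for Clec4g and 0.47 for Cd34, again with 0 called.

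At 8 weeks, limma called 0 of 18820 genes between NEMO/JNK1Δhepa and NEMOΔhepa livers (0%), with 1442 at an unadjusted p under 0.05 and 0 of the 10 genes among these. Clec4g differed by -0.90 (SE 0.45, limma adjusted p = 0.661), Lyve1 by -0.70 (SE 0.74, adjusted p = 0.814), Oit3 by -0.55 and Gata4 by -0.51 (SE 0.23, adjusted p = 0.647). Plvap differed by 0.32 (SE 0.16, adjusted p = 0.656) and Cd34 by 0.37. Groups that did not overlap were seen for 0 of the 10 genes, against 14.4% of all genes, and the NEMO/JNK1Δhepa group had the largest SD of the 8 groups for 8 of the 10 genes.

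Much of that spread lay in replicate 3 of the NEMO/JNK1Δhepa group. Lyve1 was 7.64, 8.63 and 5.61 in NEMO/JNK1Δhepa livers, against 7.79, 8.63 and 7.57 in NEMOΔhepa livers. Oit3 was 8.23, 9.08 and 6.33 in NEMO/JNK1Δhepa livers, against 8.34, 8.33 and 8.63 in NEMOΔhepa livers. Stab2 was 8.36, 9.04 and 6.76 in NEMO/JNK1Δhepa livers, against 8.12, 8.23 and 8.48 in NEMOΔhepa livers. In all of these the value of replicate 3 lay below every other liver of the study. It was the lowest of 24 livers for 6 of the 7 sinusoidal genes, all but Clec4g, and for Vwf at 5.27, and the highest for Cd34, at 7.50 against 6.62 and 6.44 in the other NEMO/JNK1Δhepa livers. Without replicate 3 the differences at 8 weeks were 0.43 for Stab2, 0.14 for Lyve1, 0.26 for Fcgr2b and 0.22 for Oit3, with 0 of the 10 called. Gata4 stayed at -0.25 and Plvap at 0.44. Clec4g, whose values of 9.48, 8.50 and 7.57 in NEMO/JNK1Δhepa livers were spread over all replicates, stayed at -0.43.

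In this liver the medians of the wider lists lay apart by endothelial kind, as values of 1 liver and with no test. The 3 capillary genes of the set did not move together. Vwf and Plvap (8.11 against 8.39 and 8.55) were below both other NEMO/JNK1Δhepa livers and Cd34 above, at a median of -0.36. Other sinusoidal genes were below both other NEMO/JNK1Δhepa livers in 14 of 19 cases, at a median of -0.99. The lowest, chosen after the values were seen, was Clec1b, a lectin receptor, at 5.92 against 7.43 and 9.04. Other capillary and basement membrane genes were above both in 12 of 22 cases and below in 6, at a median of 0.48, led by the apelin receptor Aplnr at 6.01 against 3.93 and 4.14, likewise chosen after the values were seen. Pan-endothelial genes were below in 12 of 24 cases and above in 5, at a median of -0.08. Across all 18820 genes 36.1% were below and 6911 genes above, at a median of 0.00. Other cells shifted as well. All 13 Kupffer cell markers were below, at a median of -1.97, and 13 of 14 stellate and mesenchymal markers, at a median of -0.92, while hepatocyte markers differed by a median of -0.05. The log2 sum of the biliary markers was 10.33 in this liver, against 8.68 and 8.14 in the others, and the part of these cells in the member values was not tested.

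**Figure D4:**
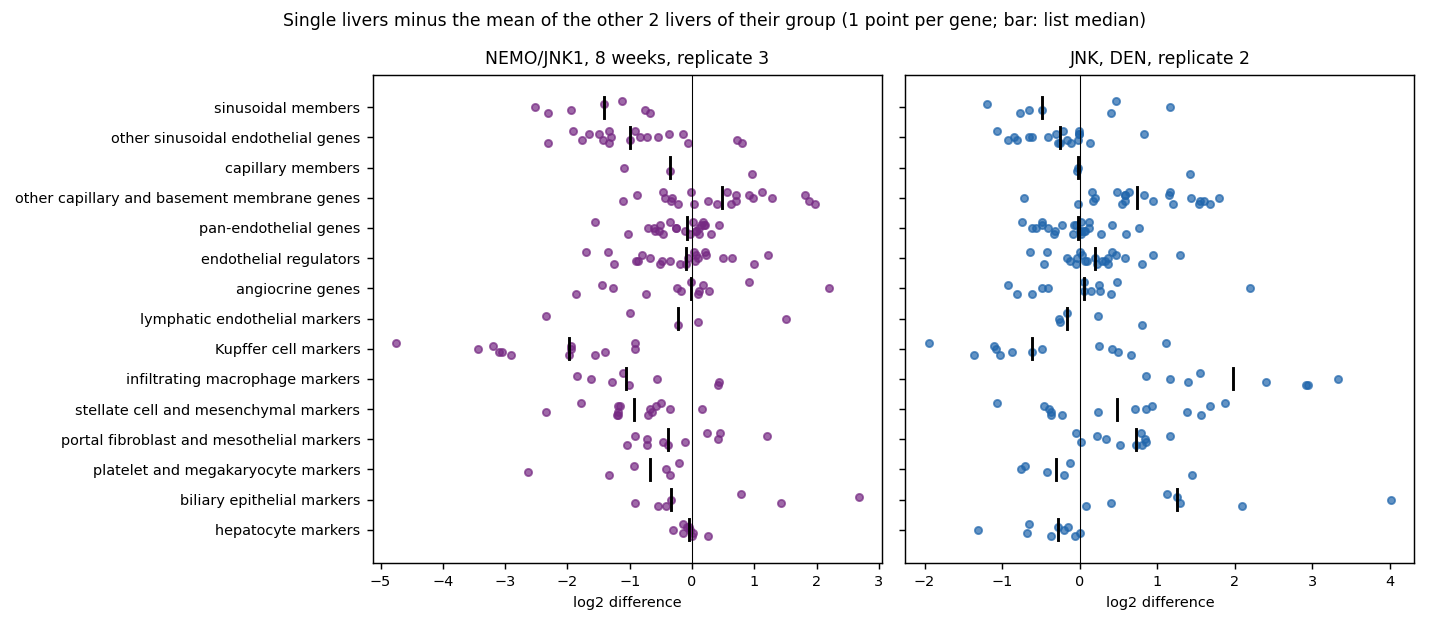
Log2 value of each gene in 1 liver minus its mean in the other 2 livers of the group, 1 point per gene, for replicate 3 of NEMO/JNK1Δhepa at 8 weeks (left) and replicate 2 of JNKΔhepa after DEN (right), with a bar at each list median. The 7 sinusoidal genes centre on -1.41 on the left and -0.49 on the right, the 3 capillary genes on -0.36 and -0.02, and the other capillary and basement membrane genes on 0.48 and 0.74.

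The contrast of the 2 kinds of gene was summarised per liver as the mean of the 7 sinusoidal values minus the mean of the 3 capillary values, read only as differences between livers and given with no test. At 52 weeks it was 1.08, 1.39 and 0.88 in NEMO/JNKΔhepa livers, against 1.95, 1.94 and 1.89 in control livers. The lower contrast went with a higher capillary mean, 6.95 ± 0.30 in NEMO/JNKΔhepa livers and 6.23 ± 0.08 in control livers (SD, n = 3 each). That rise was mostly Cd34, which differed by 1.77, against 0.38 for Vwf and 0.01 for Plvap. The sinusoidal mean was 8.07 ± 0.11 in NEMO/JNKΔhepa livers and 8.16 ± 0.12 in control livers and overlapped. In livers labelled control the contrast was 0.77, 0.72 and 1.37 after BDL, against 2.22, 1.74 and 1.72 after DEN, with the capillary mean higher by 0.65 and the sinusoidal mean lower by 0.29 on the log2 scale, neither with overlap. In JNKΔhepa livers it was 1.13, 1.26 and 1.10 after BDL, against 2.07, 1.22 and 1.59 after DEN, and these groups overlapped.

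Between genotypes after injury the contrast overlapped. Its mean was 1.16 ± 0.09 in JNKΔhepa livers and 0.95 ± 0.36 in control livers after BDL, and 1.63 ± 0.42 in JNKΔhepa livers and 1.89 ± 0.28 in control livers after DEN (SD, n = 3 each). After DEN the sinusoidal mean alone did not overlap, at 8.22 ± 0.09 in JNKΔhepa livers and 8.51 ± 0.13 in control livers. At 8 weeks the contrast was 1.18, 1.29 and -0.14 in NEMO/JNK1Δhepa livers, against 1.32, 1.48 and 1.47 in NEMOΔhepa livers, without overlap, and the capillary mean was 7.07 ± 0.10 in NEMO/JNK1Δhepa livers and 6.83 ± 0.02 in NEMOΔhepa livers. The value of -0.14, in replicate 3, was the lowest of all 24 livers.

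**Figure D5:**
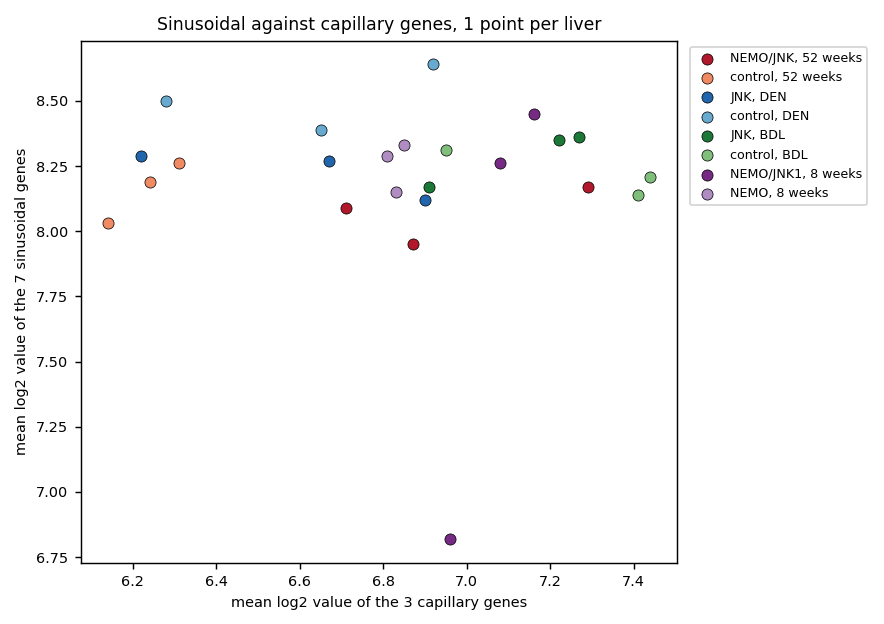
Mean log2 value of the 7 sinusoidal genes (vertical) against that of the 3 capillary genes (horizontal), 1 point per liver, coloured by group. Control livers at 52 weeks lie at the left, with capillary means of 6.14 to 6.31, as do replicate 1 of JNKΔhepa DEN (6.22) and replicate 1 of control DEN (6.28). NEMO/JNKΔhepa livers lie to the right of the 52-week controls at 6.71 to 7.29 with sinusoidal means of 7.95 to 8.17, and 1 NEMO/JNK1Δhepa liver lies alone at a sinusoidal mean of 6.82. At 52 weeks the capillary shift lies mostly in Cd34, which differed by 1.77, against 0.38 for Vwf and 0.01 for Plvap.

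Ranked by group mean, the genes differed in which condition held their extremes. Lyve1 had the widest range of group means, 2.06, with control livers after BDL on top at 9.06 ± 0.52 and control livers at 52 weeks at the bottom, at 7.04, 7.64 and 6.33. Below the top group came control DEN (8.15), NEMOΔhepa (8.00), NEMO/JNKΔhepa (7.74), JNKΔhepa DEN (7.45), JNKΔhepa BDL (7.38) and NEMO/JNK1Δhepa (7.29), and of these neighbours only the top pair did not overlap. Clec4g placed the same BDL control group last, at 7.92 ± 0.69, after 9.69 for control DEN, 9.53 for control at 52 weeks, 9.42 for NEMOΔhepa, 9.40 for JNKΔhepa DEN, 9.34 for JNKΔhepa BDL, 9.06 for NEMO/JNKΔhepa and 8.51 for NEMO/JNK1Δhepa, and every neighbouring pair overlapped. Cd34 was highest in NEMO/JNKΔhepa livers (6.88), followed by NEMO/JNK1Δhepa (6.85), JNKΔhepa BDL (6.75), NEMOΔhepa (6.48), control BDL (6.41), JNKΔhepa DEN (5.79), control DEN (5.44) and control at 52 weeks (5.10), with overlap between all neighbours. Both groups at 52 weeks had the lowest means of Plvap, at 7.69 in NEMO/JNKΔhepa livers and 7.67 in control livers, and control BDL the highest at 8.81, and the 1 gap without overlap lay between JNKΔhepa BDL (7.93) and NEMO/JNKΔhepa. The ranges of the remaining genes were narrower, from 0.51 for Gata4 and 0.55 for Fcgr2b through 0.71 for Stab2, 0.90 for Stab1 and 0.91 for Vwf to 0.97 for Oit3.

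Genes whose pattern over the 24 livers was most like the mean of the 7 sinusoidal genes were Gpr182 (Pearson r = 0.85), Acer2 (0.80), Cd55, Apoc3 and Adam23 (0.77 each) and F11 (0.76), out of 7517 genes with a mean of at least 6. The livers share groups, so these are descriptions. They leaned on replicate 3 of the NEMO/JNK1Δhepa group, since without it, over 23 livers, Gpr182 stood at 0.67, Acer2 at 0.60, F11 at 0.43, Apoc3 at 0.44, Adam23 at 0.37 and Cd55 at 0.20. Gpr182 was 7.45, 7.53 and 7.85 in NEMO/JNKΔhepa livers, against 8.13, 8.15 and 8.32 in control livers at 52 weeks, and 6.40 in the NEMO/JNK1Δhepa liver that stood apart. The genes most like the mean of the 3 capillary genes were Ecscr (0.90), Heg1, Apaf1 and Tagln2 (0.88 each) and Entpd1 and Cyb561 (0.87 each). After the group means were taken off, these correlations were 0.77 for Ecscr, 0.66 for Heg1, 0.57 for Apaf1, 0.73 for Tagln2, 0.67 for Entpd1 and 0.57 for Cyb561.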

How the data were processed

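RNA of 24 livers was hybridised to a whole-transcript Affymetrix mouse array, 1 array per liver and 3 mice per group, and precision is limited by the number of arrays. Values came on the log2 scale per probe set, as the authors deposited them after RMA (per the submitters' processing notes). Not given in the sources used here are the program for RMA, the probe set definition and which arrays were normalised jointly. Of 35556 probe sets, 21218 carried 1 gene symbol, 1881 several and 12457 none. Those with 1 symbol stood for 18820 genes, each taken at its probe set of highest mean, so that a second probe set of Stab1 shared with Nt5dc2 and a dim one of Clec4g were not used.

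Each comparison was fitted on its own 6 arrays, and the interaction on 12, with limma 3.58.1 in R 4.3.3 (lmFit and eBayes, two-sided), without a filter. P-values were adjusted by Benjamini-Hochberg over all genes, and the threshold was 0.05, in 7 comparisons. An exact permutation of 3 against 3 livers cannot go below 0.1. The genes, lists and tests were chosen with earlier results of these data known. Beside the 10 genes and the targeted Mapk8, Mapk9 and Ikbkg, up to 3 called genes of smallest p were named from each list and comparison, with 6 genes of highest likeness for each kind. Alternatives were other scalings, a filter on dim genes (a value of 5 in 3 arrays), means of probe sets, a trended robust prior, array weights, all 24 arrays in 1 fit, blocks and leaving out each liver. On simulated data of 18820 genes, a change of 1 was called for 78% of changed genes at 52 weeks, 59% after DEN, 80% after BDL, 49% at 8 weeks and 44% in the interaction.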

Additional observations from a re-analysis of the deposited data

Results flagged for a closer look

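Among livers labelled control, Stab2 was lower and Plvap higher after BDL than after DEN, and in JNKΔhepa livers both ran the other way. Stab2 differed by 0.47 between BDL and DEN in JNKΔhepa livers and by -0.48 in control livers. Plvap differed by -0.26 in JNKΔhepa livers and by 0.59 in control livers. In each case the livers of the BDL and DEN groups did not overlap. The difference between the genotypes was tested as an interaction over 12 livers and was 0.95 for Stab2 and -0.85 for Plvap. The unadjusted limma p-values were 0.00439 for Stab2 and 0.00452 for Plvap, and both failed the adjustment over all genes (limma adjusted p = 0.459).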

How the results depend on the processing

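Of 1060 values of the 10 genes recomputed under other settings, 942 kept their direction and their side of the threshold, 30 lost a call, 25 gained one and 63 changed sign, 46 of these when 1 liver was left out. Sign changes touched only genes uncalled in both fits (lowest adjusted p 0.136).

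Of the 10 genes, 3 were called at 52 weeks as reported, against 1 with all 24 arrays in 1 fit, 6 with centred arrays, 1 with quantile normalisation and 1 to 3 without single livers. After BDL 1 was called (Lyve1), and 1 with all 24 arrays in 1 fit (Plvap at -0.88, adjusted p = 0.0207, with Lyve1 at 0.188), against 2 with centred arrays, 2 with a trended robust prior, 3 with array weights and 0 to 2 without single livers. Between BDL and DEN in control livers it was 1, against 0 with means of probe sets, where Clec4g is averaged with its dim probe set (-0.75, limma adjusted p = 0.106), and 0 to 2 without single livers. In JNKΔhepa livers it was 0, against 1 with dim genes filtered out, 4 with array weights and 0 to 3 without single livers. With means of probe sets, Clec4g was also not called at 52 weeks (-0.34, limma adjusted p = 0.0974). The cause of these changes was not tested. Genes called overall ranged from 2693 to 10512 at 52 weeks (4048 reported), 58 to 559 after BDL (255), 56 to 858 between injuries in control livers (466), 1 to 2482 in JNKΔhepa livers (204), 2 to 68 in the interaction (9), 0 to 2 after DEN and 0 to 57 at 8 weeks (0 each).

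Values that changed sign outside single-liver fits were, at 52 weeks, Plvap with centred arrays (-0.31) and quantile normalisation (-0.04). After DEN they were Fcgr2b (-0.06) and Plvap (0.09) with array weights. At 8 weeks they were Vwf with centred arrays (-0.08) and quantile normalisation (-0.03), and Stab2 (0.02) and Fcgr2b (0.07) with array weights. Between BDL and DEN in JNKΔhepa livers they were Clec4g (0.02) and Fcgr2b (0.00) with quantile normalisation, and Lyve1 (0.30) and Fcgr2b (0.10) with array weights. In the interaction Cd34 was 0.02 with centred arrays, 0.03 with quantile normalisation, 0.19 with array weights and 0.47 with the mouse number as a block, and Gata4 was 0.01 with quantile normalisation.

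Without single livers the following ranged across 0. At 52 weeks it was Plvap (-0.11 to 0.17). After DEN these were Clec4g (-0.50 to 0.11), Fcgr2b (-0.09 to 0.15), Gata4 (-0.22 to 0.09), Cd34 (-0.12 to 0.71) and Plvap (-0.14 to 0.07). After BDL these were Oit3 (-0.22 to 0.08) and Vwf (-0.02 to 0.40). At 8 weeks these were Stab1 (-0.02 to 0.34), Stab2 (-0.72 to 0.43), Lyve1 (-1.37 to 0.14), Fcgr2b (-0.31 to 0.26), Oit3 (-1.15 to 0.22) and Vwf (-0.23 to 0.38). Between BDL and DEN it was Gata4 in control livers (-0.13 to 0.06), and in JNKΔhepa livers Lyve1 (-0.31 to 0.32), Clec4g (-0.46 to 0.15), Fcgr2b (-0.14 to 0.12) and Gata4 (-0.24 to 0.07). In the interaction these were Gata4 (-0.22 to 0.08) and Cd34 (-0.38 to 0.45).

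Replicate numbers were not taken as pairs of mice. Deviations of same-numbered livers correlated at 0.017 to 0.035 at 52 weeks, -0.069 to 0.136 after BDL and -0.067 to 0.012 at 8 weeks. After DEN they correlated at 0.359, 0.301 and 0.045 for replicates 1, 2 and 3. No differently numbered livers were correlated beside them, so these values cannot settle whether mice were paired. With the replicate number as a block, 2 of the 10 genes were called at 52 weeks (Cd34, and Lyve1 at adjusted p = 0.0302), with Clec4g at 0.0525 and Oit3 at 0.0653. After BDL 1 was called (Clec4g, adjusted p = 0.0391), with Lyve1 at 0.054, and in the other comparisons the counts were as reported. With 3 livers a group and no detection call, values near the lowest levels of the array have no order, and a group that spans a liver standing apart has an SD set by that liver.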

Other observations

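Gpc3, Spink1, Afp and Marco are given as values, chosen after they were seen. Gpc3, glypican-3, which liver tumours and fetal liver express, was 10.19 in replicate 2 of the JNKΔhepa DEN group, against 5.20 and 3.62 in the other JNKΔhepa DEN livers. It was 9.68 in replicate 3 of the NEMO/JNK1Δhepa group, against 5.36 and 6.71 in the other livers of that group. Control livers after DEN were also spread, at 6.14, 9.22 and 10.59, while NEMO/JNKΔhepa livers at 52 weeks had 5.90, 8.38 and 7.09, against 3.78, 4.45 and 3.90 in control livers. Spink1, a trypsin inhibitor, was 9.30 in replicate 2 of the JNKΔhepa DEN group, against 3.19 and 2.96 in the other livers of that group, and 4.04, 8.16 and 5.63 in control DEN livers. In replicate 3 of the NEMO/JNK1Δhepa group it was 9.02, against 3.61 and 5.94 in the others. Afp, the fetal serum protein alpha-fetoprotein, was 7.62 in replicate 2 of the JNKΔhepa DEN group, against 3.83 and 3.77 in the others, and 4.09, 6.23 and 7.54 in control DEN livers. In replicate 3 of the NEMO/JNK1Δhepa group Afp was 4.76, against 3.99 and 4.11 in the others. Marco, a scavenger receptor of Kupffer cells, was 4.20 in that liver, against 7.08 and 10.81 in the others of its group.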
